A study of Mus musculus with 8 samples.

Results

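Cathepsins are proteases that work mainly in lysosomes, and cystatins are small proteins that inhibit the cysteine cathepsins. The set described here holds 8 cathepsin genes (Ctsb, Ctsc, Ctsd, Ctsh, Ctsk, Ctsl, Ctss and Ctsz) and 2 cystatin genes (Cst3 and Cst6), chosen by symbol, 10 of the 23420 named genes in the deposited table. They were compared between the limbal rim, the ring of tissue at the edge of the cornea that houses the epithelial stem cells, and the corneal button, the clear centre. Both tissues came from wild type C57BL/6J mice, 8 weeks old with no treatment named, and the rims and the buttons of several eyes were pooled by tissue. The labels list 4 samples per tissue, but the table gives no value per sample. Its means break down into whole reads of 1 library per tissue, so each tissue is treated as 1 library. No spread between replicates can be measured.

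In the limbus, Ctsz was 5.57-fold higher and Ctsk 4.91-fold higher, Ctsh 2.16-fold and Cst3 2.09-fold, and Ctsc 1.69-fold. Ctss, Ctsb and Cst6 were also higher in the limbus, but by less than 1.5-fold. Ctsd was almost level, and Ctsl, at the edge of the rule used for calls, was 1.51-fold higher in the cornea.

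Most cathepsins are made as inactive proenzymes, are carried to the acidic lysosome and are activated there by removal of a propeptide. Cathepsins B, C, H, K, L, S and Z use a cysteine in the active site, whereas cathepsin D uses aspartates and is not held in check by cystatins. Secreted cystatins block cysteine cathepsins that escape from cells, and cystatin C is the cystatin found in most body fluids. In the cornea, proteases of this kind are known from the turnover of epithelium and stroma and from antigen processing by resident immune cells.

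The coding sequence around the active site shows how alike the cysteine cathepsins are. Each line gives 30 coding bases from the GENCODE transcript that matches RefSeq (GRCm38), 5′ to 3′. In the cysteine cathepsins the capitals mark the codon of the catalytic cysteine.
Ctsk, chr3:95502582-95502611, plus strand: ggccagtgtggttccTGTtgggctttcagc
Ctsl, chr13:64367063-64367092, minus strand: ggccagtgcgggtctTGTtgggcgtttagc
Ctss, chr3:95545333-95545362, plus strand: ggttcttgtggtgccTGCtgggctttcagt
Ctsh, chr9:90064507-90064536, plus strand: ggggcctgtggcagcTGCtggactttctct
Ctsb, chr14:63135702-63136415, plus strand: ggctcctgcggctctTGTtgggcatttggg
Ctsz, chr2:174438184-174438213, minus strand: cagtactgtggttccTGCtgggcccacggc
Ctsc, chr7:88302300-88308041, plus strand: gaatcttgtggaagcTGCtactcatttgcc

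The Ctsk and Ctsl windows share 25 of 30 bases and the Ctsk and Ctss windows 23, whereas Ctsc and Ctsl share 13, the fewest of the pairs. The windows of Ctsb and Ctsc cross an intron, so their genomic span is longer than the sequence.

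In the cystatins the capitals mark the codons of the conserved loop that enters the active site cleft of the protease. Both windows cross an intron.
Cst3, chr2:148872913-148875164, minus strand: gctcgtaagCAGCTCGTGGCTGGAgtgaac
Cst6, chr19:5348505-5349106, minus strand: gcaaaatatCAGCTGGTGGCTGGCatcaag

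The promoters are shown for the neighbours Ctsk and Ctss, for Ctsz with the highest ratio and for the almost level Ctsd. RefSeq windows of 300 bases around the start (GRCm38.p6) were at hand for 7 members, and Ctsb, Ctsh and Cst6 had none. Capitals mark matches on either strand. The E-box core CACGTG, to which basic helix-loop-helix factors bind, was searched. The TATA box was searched as TATAAA and the box named for its letters as CCAAT. The GC box, to which Sp1 binds, was searched as GGGCGG. For PU.1, a factor of the myeloid lineage, the core GAGGAA was searched.
Ctsk promoter, chr3:95498960-95499259, plus strand: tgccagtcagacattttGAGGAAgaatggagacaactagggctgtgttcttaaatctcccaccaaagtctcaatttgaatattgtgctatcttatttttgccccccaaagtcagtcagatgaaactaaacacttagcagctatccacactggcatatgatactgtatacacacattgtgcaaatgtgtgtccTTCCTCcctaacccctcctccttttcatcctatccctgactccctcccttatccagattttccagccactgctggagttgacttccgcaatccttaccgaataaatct
Ctss promoter, chr3:95526536-95526835, plus strand: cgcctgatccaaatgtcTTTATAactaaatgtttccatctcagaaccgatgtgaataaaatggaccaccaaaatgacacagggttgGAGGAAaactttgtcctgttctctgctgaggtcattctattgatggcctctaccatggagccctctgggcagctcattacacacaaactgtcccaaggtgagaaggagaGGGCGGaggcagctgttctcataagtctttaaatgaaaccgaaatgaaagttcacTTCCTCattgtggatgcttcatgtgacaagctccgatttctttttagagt
Ctsz promoter, chr2:174438990-174439289, minus strand: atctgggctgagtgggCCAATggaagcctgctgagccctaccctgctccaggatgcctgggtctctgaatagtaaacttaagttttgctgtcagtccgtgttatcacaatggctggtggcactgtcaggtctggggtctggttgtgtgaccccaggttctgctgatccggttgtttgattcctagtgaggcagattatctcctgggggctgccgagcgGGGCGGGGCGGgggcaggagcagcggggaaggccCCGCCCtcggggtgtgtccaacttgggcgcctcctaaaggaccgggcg
Ctsd promoter, chr7:142387778-142388077, minus strand: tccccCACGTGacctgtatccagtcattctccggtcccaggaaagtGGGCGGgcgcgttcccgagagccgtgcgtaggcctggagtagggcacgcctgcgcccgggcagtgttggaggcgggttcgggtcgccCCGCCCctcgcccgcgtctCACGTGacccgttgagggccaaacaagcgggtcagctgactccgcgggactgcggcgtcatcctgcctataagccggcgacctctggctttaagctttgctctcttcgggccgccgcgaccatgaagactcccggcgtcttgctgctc

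The GC box was found in 5 of the 7 member windows and in 35.7% of all 32851 windows. The PU.1 core was found in 4 of the 7 and in 28.3% of all. CACGTG was found in 2 of the 7, Ctsd and Ctsl, and in 7.15% of all, and its matches in Ctsd began at -245 and -98 from the RefSeq start. The gene spans given below are from GENCODE and can begin elsewhere. The -98 match of Ctsd and the whole Ctsl window lie inside those spans. TATAAA was in the Ctss window only (13.6% of all) and CCAAT in the Ctsz window only (37.4% of all). The Ctsz window has a pair of overlapping GC boxes, at -32 and -27. Ctsk and Ctss, separated by 17423 bases on chromosome 3, both held PU.1 cores, and a GC box was found in the Ctss window alone of this pair. These are matches of letters and not measured binding sites.

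The values are reads scaled by each library's size factor, called normalized reads here. The libraries held 26104317 reads on named genes for the cornea and 21182025 for the limbus, so 95% intervals (exact Clopper-Pearson) are narrow, but they cover counting error only and not the variation between animals or dissections. A gene was called higher in a tissue when the ratio was at least 1.5-fold and its interval excluded equal levels. All 10 members passed a minimum of more than 3 reads, in each library. By that rule 5 members were called higher in the limbus, against 22.2% of the 15572 genes that had more than 3 reads in 1 library or both. In the cornea 1 member was called higher, against 18.6% of those genes. With no minimum fold, 8 members were called for the limbus and 2 for the cornea, against 34% and 36.5% of those genes, and with a 2-fold minimum 4 and 0, against 17.6% and 8.06%. The depth is unlike, since the 15572 genes include 1710 with 3 reads or fewer in a library, whereas every member had at least 172 reads. An interval excludes equal levels more readily at high depth. The median log2 ratio of limbus over cornea was 0.65 for the 10 members and 0.01 for the 15572 genes. In pooled tissue, fewer cells of a type and less RNA per cell cannot be told apart. The deposited values name no tissue, so which library is the cornea was assumed when the reads were worked back. Every direction given here rests on that assumption, and tissue markers were set beside it. Krt12, the keratin of differentiated corneal epithelium, had a log2 ratio of -2.19. Among the limbal epithelium markers Krt15, Krt14 and Gpha2 had 3.32, 2.52 and 4.10, whereas Abcg2 (-1.58) and Trp63 (-1.06) went against the assumed tissues.

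**Figure D1:**
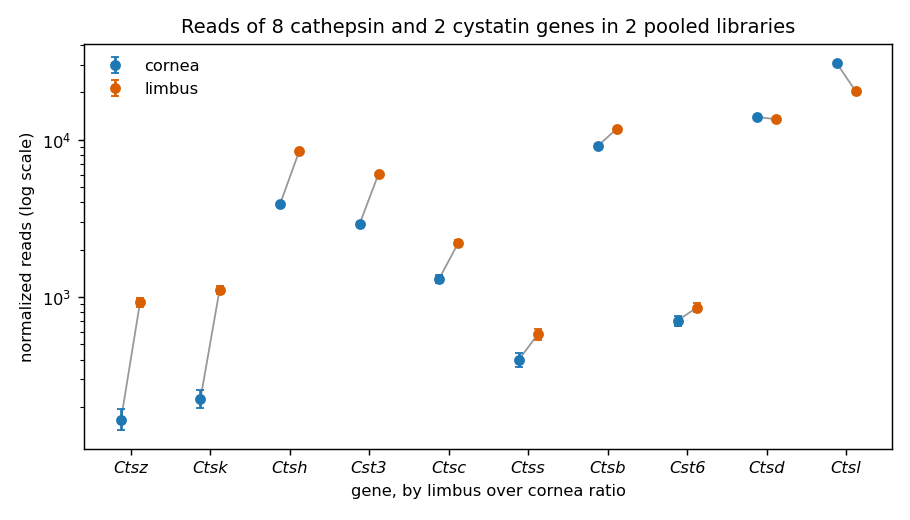
Normalized reads (y axis, log scale) of the 10 genes (x axis, ordered by ratio) in the cornea library (blue) and the limbus library (orange); bars are exact 95% Poisson intervals, and lines join the libraries of a gene. Ctsz and Ctsk show the widest gaps between the libraries, and Ctsl is the gene with the clearest gap the other way, 30714 against 20362.

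Cathepsin Z is a carboxypeptidase that is abundant in cells of the monocyte lineage. Ctsz (chr2:174427493-174439039) gave 172 cornea reads and 896 limbus reads, which come to 166 and 926 after normalization. The log2 ratio of limbus over cornea was 2.48 (95% interval 2.24 to 2.72), a 5.57-fold difference and the largest of the set. Of all genes, 91.8% had a lower ratio. An exon of Nelfcd, on the opposite strand, overlaps Ctsz, and Nelfcd had 572 and 551 reads. The library kit keeps the strand, but whether counting used it is not given in the sources used here, so reads of the overlap could belong to either gene.

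Cathepsin K is the collagen-degrading protease best known from osteoclasts and is also made by fibroblasts. Ctsk (chr3:95499256-95509362) gave 234 cornea reads and 1075 limbus reads, which come to 226 and 1111 after normalization. At a log2 ratio of 2.30 (2.09 to 2.51), Ctsk was 4.91-fold higher in the limbus. The intervals of Ctsz and Ctsk overlapped, and the ratio of Ctsk lay 1.18 log2 units above that of Ctsh, the next gene in order. Of the osteoclast markers, Calcr and Oscar were listed at 0 in both tissues. None of the 4 with more than 3 reads in a library was called, though all 4 leaned to the limbus. Acp5 had the most reads of these, 509 and 666, with a log2 ratio of 0.48 (0.31 to 0.65). Matrix genes encoding known or candidate substrates of cathepsin K were mostly higher in the limbus. Of 7, 6 were called there and none in the cornea, beside 22.2% and 18.6% of all genes. Their median log2 ratio was 1.31 against 0.01 for all genes. Col3a1, a fibrillar collagen, had a log2 ratio of 4.98. Sparc, which binds collagen, had 1.31. Eln, encoding elastin, had 3 cornea reads and 924 limbus reads, a ratio of 329 with an interval from 112 to 1599. The call of Col2a1 rested on 2 and 19 reads. Fn1, the gene of this list that was not called, went the other way at -0.24 (-0.29 to -0.19). Fibroblast markers were split: 4 of 6 were called higher in the limbus, whereas Dpt and Pdgfra had log2 ratios of -0.58 and -0.45.

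Cathepsin S cuts the invariant chain in antigen presenting cells and stays active at neutral pH. Ctss (chr3:95526786-95556403), the neighbour of Ctsk, gave 411 cornea reads and 560 limbus reads, which come to 398 and 579 after normalization. The log2 ratio stood at 0.54 (0.36 to 0.73), 1.46-fold higher in the limbus and just short of the call. Its interval did not overlap that of Ctsk, 17423 bases away. Most genes of class II antigen processing, in which cathepsin S works, differed more. Of the 8 class II antigen processing genes above 3 reads in a library, 7 were called for the limbus and none for the cornea. The shares over all genes were 22.2% and 18.6%. The median log2 ratio of the 8 was 2.83. H2-Ab1 had 3.40, H2-Eb1 3.28 and the invariant chain gene Cd74 3.31. Cd74 itself had 413 cornea reads and 3823 limbus reads. Ifi30 went the other way at -0.22 (-0.39 to -0.04). H2-DMb1 had 0.97 (0.62 to 1.33), an interval that overlaps that of Ctss.

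Cathepsin H is an aminopeptidase, known also from the processing of surfactant proteins. Ctsh (chr9:90054152-90076089) gave 4026 cornea reads and 8152 limbus reads, which come to 3895 and 8427 after normalization. This is a log2 ratio of 1.11 (1.06 to 1.17), 2.16-fold higher in the limbus.

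Cathepsin C, or dipeptidyl peptidase I, activates the granule serine proteases of mast cells, neutrophils and cytotoxic lymphocytes. Ctsc (chr7:88278085-88310888) gave 1348 cornea reads and 2130 limbus reads, which come to 1304 and 2202 after normalization. The log2 ratio was 0.76 (0.66 to 0.86). Of 10 granule serine protease genes, 5 had more than 3 reads in a library. Among these, 4 were called for the limbus and none for the cornea, beside 22.2% and 18.6% of all genes. The mast cell proteases led this list. Mcpt4 had 0 cornea reads and 139 limbus reads, a log2 ratio of at least 4.05 when the cornea is set to 3 reads and the lower end of the interval is taken. Tpsb2 had 0 and 101 reads, a log2 ratio of at least 3.58 by the same reckoning. Cma1 had 1 and 76 reads, a ratio of 81.2 with an interval from 14.1 to 3250. Gzma, of cytotoxic lymphocytes, was the remaining call, with 2 and 11 reads, a ratio of 5.88 with an interval from 1.28 to 54.6. The fifth gene, Tpsab1, had 0 and 6 reads and was not called. The neutrophil protease Prtn3 had 0 and 2 reads, and Elane, Gzmb, Gzmk and Ctsg were listed at 0 in both tissues.

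Cathepsin B is a broad lysosomal protease found in nearly every cell. Ctsb (chr14:63122462-63145923) gave 9493 cornea reads and 11406 limbus reads, which come to 9183 and 11791 after normalization. The difference on the log2 scale, 0.36 (0.32 to 0.40), was larger than counting error but only 1.28-fold. Exons of Fdft1, on the opposite strand, overlap Ctsb, and Fdft1 had 5811 and 3019 reads.

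Cathepsin L is a strong endoprotease of lysosomes that also takes part in the shedding of hair and epidermal cells. Ctsl (chr13:64359337-64370890) gave 31750 cornea reads and 19697 limbus reads, which come to 30714 and 20362 after normalization. The log2 ratio was -0.59 (-0.62 to -0.57), and Ctsl was the only member called higher in the cornea. The value lies at the edge of the 1.5-fold rule, which in log2 units falls inside its interval. It was not called after scaling by total reads (-0.39) or by a trimmed mean of M-values (-0.58), the normalization that the study's methods name. It stayed lower in the limbus under both. The pseudogene Gm49230 and the antisense gene Gm47123 overlap exons of Ctsl, and their reads were not analysed here.

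Cathepsin D is the main aspartic protease of the lysosome. Ctsd (chr7:142375911-142388038) gave 14426 cornea reads and 13077 limbus reads, which come to 13955 and 13518 after normalization. Limbus over cornea gave -0.05 (-0.08 to -0.01) on the log2 scale, and scaling by total reads turned it to 0.16. A second gene model, Gm49369, overlaps its exons on the same strand.

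Cystatin C, the product of Cst3, is the main secreted inhibitor of cysteine cathepsins. Cst3 (chr2:148871722-148875692) gave 3005 cornea reads and 5885 limbus reads, which come to 2907 and 6084 after normalization. The log2 ratio was 1.065 (1.002 to 1.129), 2.09-fold higher in the limbus. Its interval overlapped that of Ctsh and lay below that of Ctsk.

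Cystatin M/E, the product of Cst6, restrains cathepsin L and legumain in cornifying epithelium. Cst6 (chr19:5344705-5349574) gave 734 cornea reads and 828 limbus reads, which come to 710 and 856 after normalization. That is 0.27 (0.12 to 0.41) on the log2 scale. Cst6 thus differed by less than Cst3, and the intervals of these 2 cystatins did not overlap. Of the 5 cornified epidermis genes with more than 3 reads in a library, 1 was called higher in each tissue (Krt1 in the limbus and Ivl in the cornea). The shares over all genes were 22.2% for the limbus and 18.6% for the cornea.

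**Figure D2:**
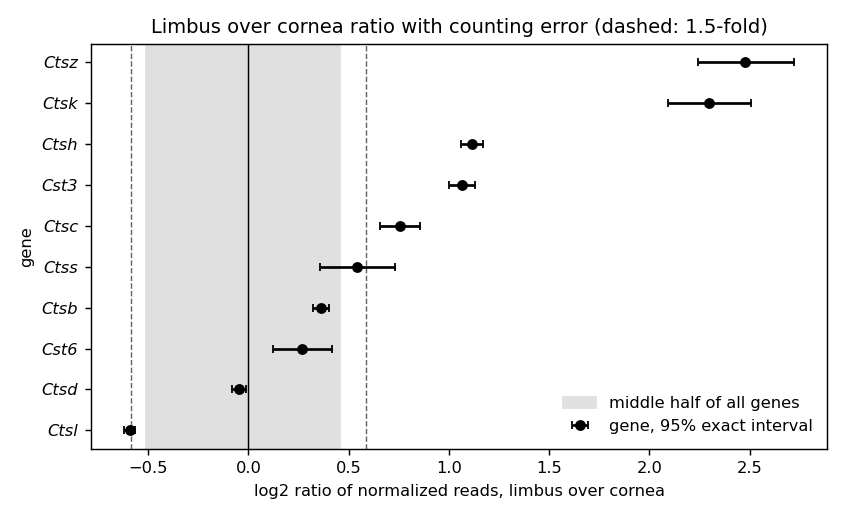
Log2 ratio of limbus over cornea (x axis) for each of the 10 genes (y axis); points are ratios of normalized reads, bars exact 95% intervals of counting error, dashed lines 1.5-fold, and the grey band the range between the first and the third quartile of the 13862 genes above 3 reads in each of the libraries. Ctsz and Ctsk stand apart at 2.48 and 2.30, Ctsb, Cst6 and Ctsd lie inside the band that runs from -0.51 to 0.46, and Ctsl lies below it at -0.59.

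In the order of the ratios, the intervals of 5 pairs of neighbours overlapped, namely Ctsz and Ctsk, Ctsh and Cst3, Ctsc and Ctss, Ctss and Ctsb, and Ctsb and Cst6. The steps from Ctsk to Ctsh, Cst3 to Ctsc, Cst6 to Ctsd and Ctsd to Ctsl exceeded counting error.

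Levels of the members were compared with each other per kilobase of exon. Summed over the 8 cathepsins, the cornea had 13835 normalized reads per kilobase and the limbus 14893, a ratio of 1.08, while the makeup differed. Ctsl made up 34.2% of the sum in the cornea and 21.1% in the limbus. Ctsh went from 6.26% to 12.6%, Ctsk from 1.08% to 4.94% and Ctsz from 0.835% to 4.32%. Ctsd held 42.9% and 38.6%, and Ctsb 11.0% and 13.1%. Ctsc held 1.62% and 2.55%, and Ctss 2.12% and 2.86%. The order of Ctsd and Ctsl depends on the length used, because the union of Ctsl exons measures 6489 bases and its RefSeq-matched transcript 1971. With the RefSeq-matched lengths Ctsl led with 56.5% of the cornea sum and 38.2% of the limbus sum, and Ctsd held 23.8% and 23.5%. Ctsc then held 1.90% and 3.26%, and Ctss 1.06% and 1.58%. The sum over the 8 cathepsins was then 0.982 times as high in the limbus as in the cornea. Its direction therefore rests on the length, whereas the lower Ctsl share and the higher Ctsh, Ctsk and Ctsz shares of the limbus were seen with both.

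Of the 2 cystatins in the set, Cst3 supplied 93.0% of the summed level per kilobase in the cornea and 95.8% in the limbus. The summed cathepsin level was 5.60 times that of the 2 cystatins in the cornea and 2.97 times in the limbus. With RefSeq-matched lengths these values were 7.74 and 3.71. The comparison is of RNA levels, and it counts cathepsin D, which cystatins do not inhibit. It leaves out the other cystatins, some of which lay above Cst3. BC100530 had 41623 normalized reads per kilobase of exon in the cornea and 43722 in the limbus, above the summed cathepsins. Cstb had 9812 and 11059, beside 2296 and 4805 for Cst3. The values therefore do not set the cathepsins against all their inhibitors.

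**Figure D3:**
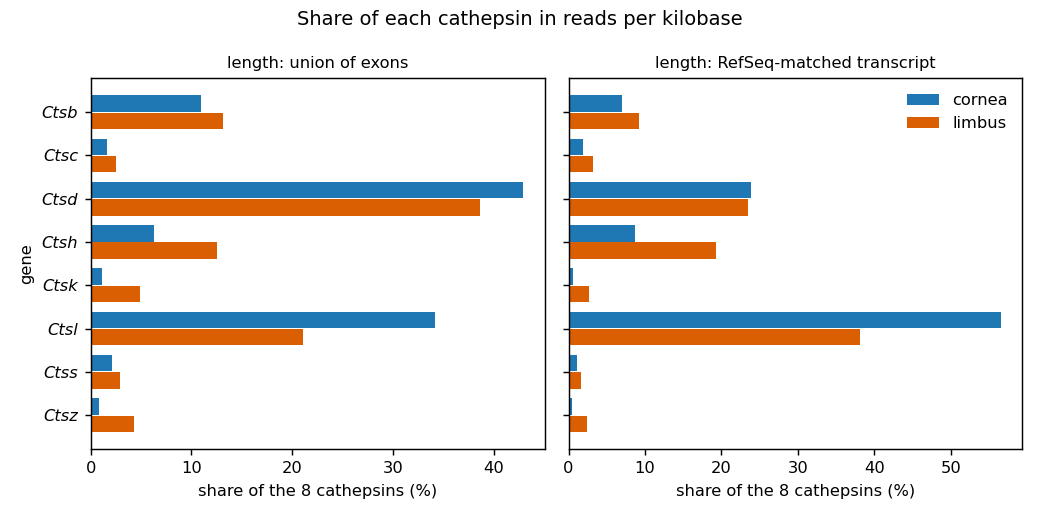
Share (x axis, percent) of each cathepsin (y axis) in the summed normalized reads per kilobase of the 8 cathepsins, in the cornea (blue bars) and the limbus (orange bars), with the union of exons as length on the left and the RefSeq-matched transcript on the right. Ctsl and Ctsd change places between the panels, and in both panels the Ctsl share is lower and the Ctsh share higher in the limbus.

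Of the 15 other cathepsin genes, 4 had more than 3 reads in a library. Among these, 3 were called for the limbus and 1 for the cornea, beside 22.2% and 18.6% of all genes. Ctsa, whose product protects lysosomal galactosidase and neuraminidase, had 1619 cornea reads and 2442 limbus reads, with a log2 ratio of 0.69. Ctsf, a cysteine cathepsin, had 441 and 788 reads and a ratio of 0.93. Ctso, a little studied member of the family, went the other way, with 2151 and 824 reads and a ratio of -1.29 (-1.41 to -1.17). Ctsw, a gene of cytotoxic lymphocytes, had 0 and 11 reads, a log2 ratio of at least 0.05. The placental cathepsins Ctsj, Ctsm, Ctsq, Ctsr, Cts3, Cts6, Cts7 and Cts8 were listed at 0, as were Ctse and Ctsg. Ctsll3 had 1 read in the cornea.

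The other cystatins include the intracellular stefins. Of the 8 other cystatin genes with more than 3 reads in a library, none was called for the limbus and 4 were for the cornea. Over all genes the shares were 22.2% and 18.6%. Cstb, the stefin found in most cells, had 6116 and 6451 reads, with a ratio of 0.17. The stefin A genes Csta1 (listed under its older symbol Csta), Stfa1 and Stfa3 had ratios of -0.86, -0.91 and -0.85, with 8094, 1388 and 690 reads in the cornea. BC100530, of the same cluster, had 33992 and 33413 reads and a ratio of 0.07. BC117090 had 6 and 5 reads, and Stfa2l1 had 4 and 0, too few to place. The stefin A genes are near-identical copies, so reads may have been divided among them and their values are uncertain one by one. Fetub, a secreted member of the wider family, had 229 and 142 reads and a ratio of -0.59 (-0.91 to -0.29). That is 1.51-fold, at the edge of the call rule. With total reads or a trimmed mean of M-values, 3 other cystatins were called for the cornea and Fetub was not among them.

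Legumain, which cleaves several cathepsins to their mature form, is encoded by Lgmn, with 2163 and 2570 reads and a log2 ratio of 0.34. The inhibitor genes Ctla2a and Ctla2b resemble cathepsin propeptides. Ctla2a had 0 cornea reads and 249 limbus reads, a log2 ratio of at least 4.91. Ctla2b had 7 and 30 reads (ratio 2.20, 0.98 to 3.63), and Spock1, whose product carries a thyropin-like domain, had 8 and 39 (ratio 2.38, 1.26 to 3.69). Serpinb13, an inhibitor of cathepsins K and L in keratinocytes, was listed at 0.

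**Figure D4:**
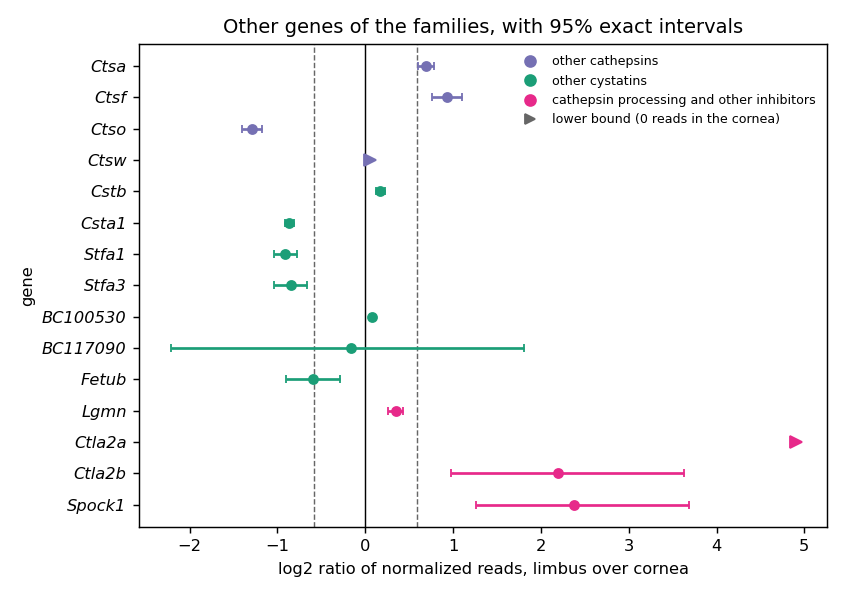
Log2 ratio of limbus over cornea (x axis) for the other cathepsins, other cystatins and processing or inhibitor genes (y axis) with more than 3 reads in a library; bars are exact 95% intervals, triangles lower bounds for genes with 0 reads in the cornea, and dashed lines 1.5-fold. Ctla2a, Ctla2b and Spock1 lie to the right, and Ctso and the stefin A genes to the left; Stfa2l1, with 4 and 0 reads, is not drawn.

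The wider lysosomal genes were taken from lists of their own. Of 35 lysosomal hydrolases, 6 were called for the limbus and 3 for the cornea, beside 22.2% and 18.6% of all genes, with a median log2 ratio of 0.25 and a range from -0.88 to 0.87. Hexa, Neu1 and Gaa, for the breakdown of gangliosides, sialic acid conjugates and glycogen, had 0.87, 0.84 and 0.82. Ids, Galc and Asah1, for heparan sulfate, galactosylceramide and ceramide, had -0.88, -0.72 and -0.71. Total-read scaling moves every log2 ratio up by 0.21 and would call 16 hydrolases for the limbus and 1 for the cornea, so the hydrolase counts depend on the scaling. The calls over all genes moved too, from 3450 to 4276 for the limbus and from 2901 to 1890 for the cornea, of 15572.

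Of 16 lysosomal membrane protein genes, 2 were called higher in each tissue. For this list and those that follow, the shares over all genes were 22.2% for the limbus and 18.6% for the cornea. Laptm5, which is expressed in blood cells, had 2.98 and Cd63 had 1.26, whereas Lamp2 had -1.39 and Tmem192 -0.71. Among 11 genes for sorting to the lysosome, Nagpa (0.62) was called higher in the limbus, and Gga2 (-0.85) and Gnptab (-0.78) in the cornea. Gnptab and Nagpa act in making the mannose 6-phosphate tag by which many cathepsins are sorted. Of the 14 vacuolar ATPase genes with reads, which acidify the lysosome, none was called for the limbus and 2 were for the cornea, Atp6v1e1 (-0.96) and Atp6v1a (-0.86). Atp6v0c, a gene that every cell uses, was listed at 0, which may be a failed estimate. Of the lysosomal transcription factor genes, Mitf (29 and 54 reads, 0.99) was called higher in the limbus, and Tfeb and Tfe3 had 0.30 and 0.29.

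**Figure D5:**
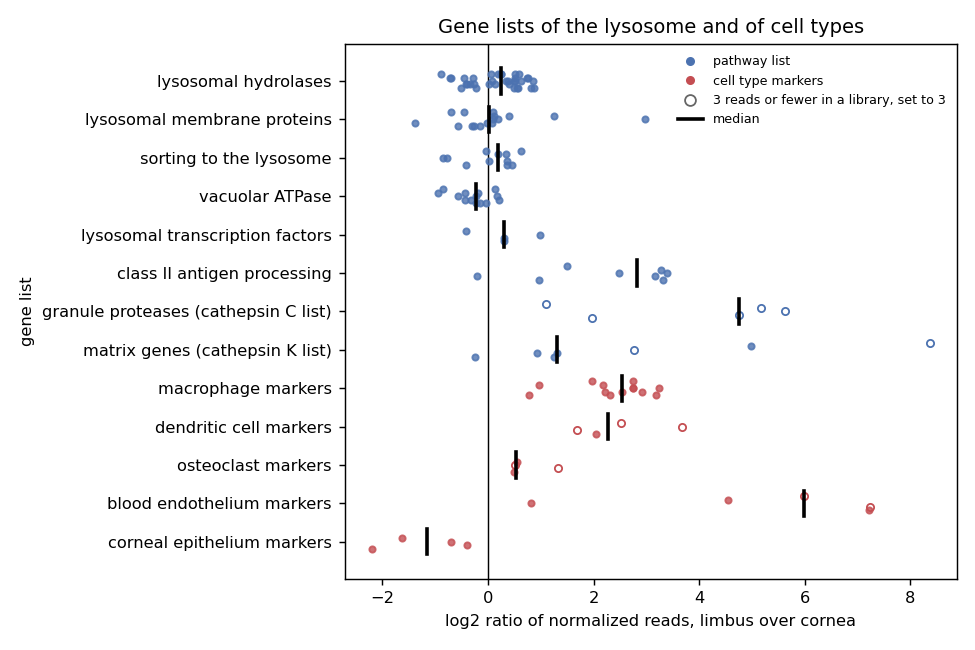
Log2 ratio of limbus over cornea (x axis) of each gene in the pathway lists (blue) and in 5 cell type marker lists (red) (y axis); black bars are medians, and open points are genes with 3 reads or fewer in a library, set to 3. The lysosomal lists centre near 0, with medians from -0.23 to 0.30, and the class II list (median 2.83) and the macrophage markers (2.53) lie to the right.

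Markers of other cell types also differed between the tissues. Beside the counts below, 22.2% of all genes were called for the limbus and 18.6% for the cornea. All 13 macrophage markers were called higher in the limbus, and their summed level was 1094 normalized reads for the cornea and 4663 for the limbus, with most reads on Lyz2, Cd68 and C1qb. Dendritic cell markers (3 of 4), melanocyte markers (5 of 5), blood endothelium markers (5 of 5), smooth muscle markers (5 of 5) and Schwann cell markers (3 of 4) were also called higher there. Skeletal muscle markers, at 77.4 cornea and 9975 limbus normalized reads, and all 5 conjunctival keratins were called higher in the limbus. Of the goblet cell markers, Agr2 was called there (46 and 618 reads), Spdef was not (18 and 25), Muc5ac had 1 read in each tissue and Tff1 was listed at 0. Of the neutrophil markers 1 of 3 was called, S100a8, and no T or NK cell marker was. Corneal epithelium markers (3 of 4) were called higher in the cornea, their sum going from 1886432 to 757159. Limbal epithelium markers were split, 3 in the limbus and 2 in the cornea (Abcg2 and Trp63). Keratocyte markers were called higher in the cornea for 2 of 3, with most reads on Aldh3a1, which the corneal epithelium also expresses. The part of these cell types in the ratios of the cathepsins and cystatins was not tested.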

How the data were processed

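Limbal rims and corneal buttons were sequenced as stranded total RNA and, per the study's methods, trimmed and mapped to GRCm38 (mm10) in CLC Genomics Workbench. The methods name a trimmed mean of M-values for normalization. Here the size factors behind the deposited means were kept, and a trimmed mean was run as an alternative. The authors deposited 1 comparison table with the mean normalized signal of each gene (reads over a size factor per library), log2 fold changes with standard errors, and p-values. The deposited p-values were not used, and the deposited log2 values and errors served only to choose between pairs of read numbers. Neither is printed.

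Means of the 17442 named genes above 0 were broken down into whole-number reads for 2 libraries, with 109 reads of the cornea equal in weight to 102 of the limbus. A positive deposited log2 fold change was taken as cornea over limbus, since the deposited values name no tissue. The mean allowed 1 pair for 6143 genes. For the rest, pairs were scored by how closely they met the standard error. The dispersion a pair implied, a measure of spread beyond counting error, also counted. Pairs scored better when it lay near that of genes of like mean and ratio. The error was met to within 0.001 for 17411 of the 17442 genes. For 2 genes the most even pair was taken. Reads are therefore derived values, and the ratios depend on the deposited comparison through this choice. For the members the error was met to within 6.4e-05, and the pair with the next best score missed by at least 0.000115. On simulated data for this comparison, the reads of all 17057 genes and the directions of all 200 changed genes were recovered. The simulation used the same model that the recovery inverts, with a dispersion set by mean and ratio alone. It therefore checks the working of the method and cannot show that the reads of the real genes are right.

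Of 40904 rows, 17484 name no gene and stayed out; 5978 named genes are listed at 0. The table's accession column was not used, since it matched the gene symbol in only 2 of 18556 rows that could be compared. The 4 samples per tissue are numbered L001 to L004, as lanes often are. Members and lists were chosen with earlier results of these data known. All 10 members were named, then every gene of the family lists with more than 3 reads in a library, then up to 3 genes per direction and list. Some single genes of the marker lists were named after their values were seen. Exon lengths and positions are from GENCODE M21. Alternatives were total reads, a trimmed mean of M-values (30% and 5% trimmed), a pseudocount of 1, other folds, filters and lengths. Python 3.11.15, numpy 2.4.6, scipy 1.17.1, pandas 2.3.3 and matplotlib 3.10.9 were used.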

Additional observations from a re-analysis of the deposited data

How the results depend on the processing

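The 5 members called higher in the limbus numbered 8 where any fold with an interval excluding equal levels was counted, against 34% of all genes. The 1 member called higher in the cornea, Ctsl, numbered 0 with total reads, with a trimmed mean of M-values and with a 2-fold rule, and 2 members were called where any fold was counted, against 36.5% of all genes. Calls over all 15572 genes for the cornea went from 2901 to 1890 with total reads, 2788 with the trimmed mean and 1255 with the 2-fold rule. Scaling by total reads moved every log2 ratio by 0.21 and the trimmed mean by 0.02. With total reads Ctsd turned from -0.05 to 0.16, Ctsl went to -0.39 and Ctss to 0.75, past the call. With the trimmed mean Ctsl went to -0.58. The other 26 of the 30 ratios of members recomputed kept their direction and their side of the call. In the pathway lists 8 counts moved by more than 1.5 times and 102 did not. The shares per kilobase all moved with the length used. The RefSeq-matched length was chosen after seeing the data. Placing the reads by the standard error alone was not run. No leave-one-out analysis was possible, since the table holds 1 value per gene over the libraries. No paired analysis was possible because the numbered samples have no columns of their own. Depth limits little for the members, whose smallest read number was 172, whereas the lack of replicates leaves the variation between animals unknown.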
